A study of Mus musculus with 4 samples.

Results

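Pax7 binding at the 4 Hox gene clusters was examined in iPax7 muscle progenitors, using 38 Hox genes (10 of Hoxa, 10 of Hoxb, 9 of Hoxc and 9 of Hoxd) placed on mm9. Peaks were taken from the deposited Pax7 ChIP-seq list when their summit lay between 100 kb before the first and 100 kb after the last of these genes in a cluster. This gave 16 of the 20579 peaks, of which 10 were inside a cluster and 6 were in a flank. The iPax7 cells are mouse ESCs with a Pax7 transgene that doxycycline (Dox) switches on. Cells were given 1 µg/ml Dox from day 3 of differentiation, sorted as PDGFRα+FLK1- on day 5, expanded for 4 more days with Dox and basic FGF, and harvested on day 9, after 6 days of Dox. Pax7 was precipitated in 2 ChIP libraries, and 2 input libraries came from the same Dox-treated, sorted cells. All libraries therefore carried the induced transgene, and no library without Dox was analysed here. The authors merged the replicates before peaks were called, so a peak has no replicate error, no difference between peaks could be tested, and no expression of Hox genes was measured in these files. The list gives no read counts, and the depth behind a peak is unknown from it.

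Hox genes encode homeodomain transcription factors that set the identity of body segments along the head-to-tail axis. They lie in 4 clusters, in which all genes are read in the same direction and the number of a gene follows both its place in the cluster and the level of the axis at which it acts, from group 1 towards the head to group 13 towards the tail. Hox proteins bind DNA together with the cofactors Pbx and Meis. Pax7, which marks muscle stem cells and their progenitors, carries a paired domain and a homeodomain of its own.

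Pax7 peaks lay within 3 of the 4 clusters. Hoxb held 6 peaks over 174 kb, Hoxa held 2 over 98.5 kb, Hoxd held 2 over 96.8 kb, and Hoxc held 0 over 116 kb. The strongest peak inside a cluster, with a fold enrichment of 9.94, was upstream of Hoxb9, and the strongest of all 16, with 12.2, was in the flank beyond Hoxa2. Fold enrichment is the value the authors' peak caller gave for the pooled ChIP over the local background at the summit, and it is used only to place a peak within its list. At 5 of the 10 inside peaks the summit was within 1 kb of a Hox gene start, namely at Hoxa5, Hoxa11, Hoxb2, Hoxb6 and Hoxd3. Of all peaks, 16.3% lay within 1 kb of an annotated transcript start. Such starts are dense in the clusters, where 35.7% of the bases lie that close, compared with 4.15% of the genome.

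**Figure D1:**
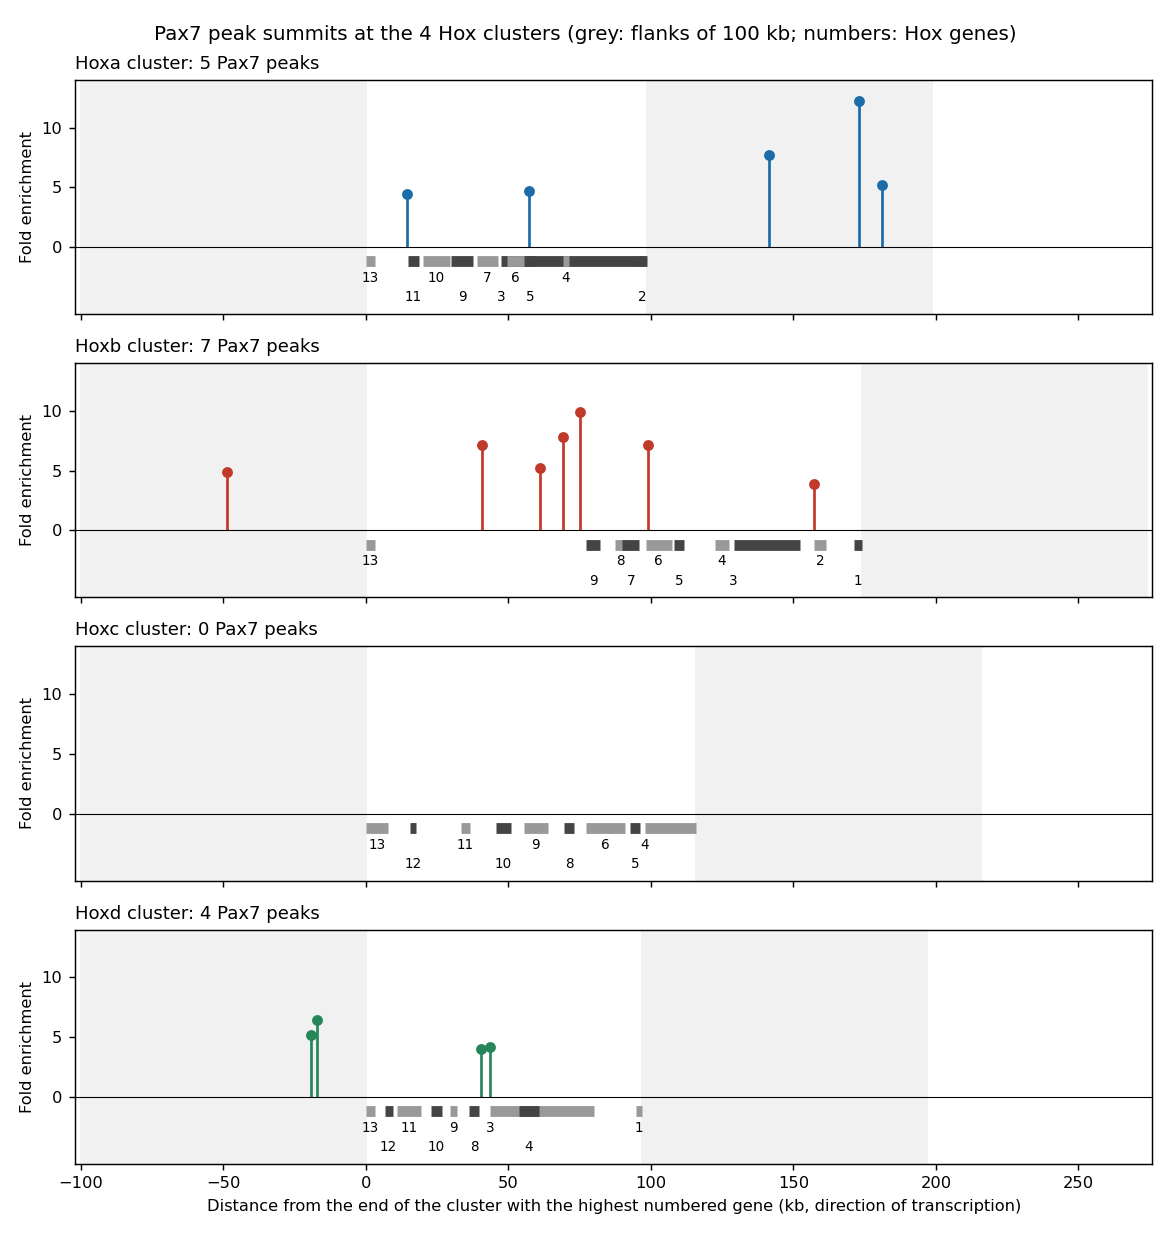
Each panel is 1 cluster, drawn in the direction of transcription, with the distance from its highest numbered gene in kb on the horizontal axis and the fold enrichment of each Pax7 peak as a vertical line ending in a point. Hox genes are bars below the axis with their numbers, and the grey areas are the flanks of 100 kb. Hoxb holds 6 peaks between its first and last gene, whereas the Hoxc panel holds 0.

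The sequences around the summits are shown for 5 of the 6 strongest peaks inside the clusters, since these stand highest in the list (the sixth lies in an untranslated exon), for the strongest flanking peak, and for the peak beyond Hoxb13 that holds a paired box core at its summit. The last was chosen after its values were seen. Each is the plus strand of mm9 from 50 bases before to 50 bases after the summit, and capitals mark the letters of a Pax motif on either strand, described with the motif counts further on.
Upstream of Hoxb9 (chr11:96130782-96130882): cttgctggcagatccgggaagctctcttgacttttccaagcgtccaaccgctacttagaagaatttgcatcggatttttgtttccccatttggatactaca
Between Hoxb13 and Hoxb9 (chr11:96096383-96096483): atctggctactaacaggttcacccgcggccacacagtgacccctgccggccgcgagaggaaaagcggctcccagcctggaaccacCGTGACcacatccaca
Hoxb6 intron (chr11:96154711-96154811): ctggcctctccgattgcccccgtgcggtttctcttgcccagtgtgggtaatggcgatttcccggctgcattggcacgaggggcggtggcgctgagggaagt
Gm53 intron (chr11:96116630-96116730): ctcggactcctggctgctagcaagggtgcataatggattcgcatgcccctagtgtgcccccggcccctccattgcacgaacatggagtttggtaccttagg
Hoxa5, end of exon 1 and the intron bases next to it (chr6:52153745-52153845): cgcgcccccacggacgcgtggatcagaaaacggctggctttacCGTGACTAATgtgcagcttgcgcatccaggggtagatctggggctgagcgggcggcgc
Beyond Hoxa2, strongest flanking peak (chr6:52037950-52038050): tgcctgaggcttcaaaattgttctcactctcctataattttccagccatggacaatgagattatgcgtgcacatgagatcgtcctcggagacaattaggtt
Ttll6 intron, beyond Hoxb13 (chr11:96007030-96007130): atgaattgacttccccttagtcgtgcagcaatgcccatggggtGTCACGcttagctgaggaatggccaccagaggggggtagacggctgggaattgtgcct

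In the Hoxb cluster (chromosome 11, 96055630 to 96229570), 4 of the 6 peaks lay in the stretch of 74.0 kb between Hoxb13, which acts at the tail end of the axis, and Hoxb9, a gene of thoracic segments. The summit of the strongest, from 96130583 to 96131050, was 1.94 kb upstream of the Hoxb9 start in intergenic sequence. Its fold enrichment of 9.94 and −log10 q of 33.9 placed it above 92.8% of all peaks by fold enrichment (rank 1456), and at 468 bp it was the widest of the 16. The second, from 96124704 to 96124979, had a fold enrichment of 7.85 and a −log10 q of 22.9. Its summit lay in an untranslated exon of Gm53, 7.93 kb upstream of Hoxb9 and 1639 bp from the start of Mir196a-1, a microRNA gene of the cluster. The third, from 96096312 to 96096594, was intergenic, 36.3 kb upstream of Hoxb9 and 40.8 kb downstream of the Hoxb13 start, with a fold enrichment of 7.15. The fourth, from 96116592 to 96116814, had a fold enrichment of 5.18 and lay in a Gm53 intron 16.1 kb upstream of Hoxb9. All 4 were at or above a fold enrichment of 5, with a median of 7.5.

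The other 2 Hoxb peaks lay in the 96.8 kb from Hoxb9 to Hoxb1, which holds the remaining listed genes of the cluster. One, from 96154623 to 96154846, had its summit 971 bp downstream of the start of Hoxb6, in an intron of that gene and in an exon of the overlapping transcript 0610040B09Rik. Its fold enrichment of 7.15 and −log10 q of 19.2 were the same as those of the third peak above, and 102 peaks of the list carried this pair of values. The last, from 96212666 to 96212861, was 148 bp upstream of the start of Hoxb2, a gene of the hindbrain segments, in an intron of Hoxb3os. With a fold enrichment of 3.84 and a −log10 q of 4.99 it was the weakest of the 16, above 12.3% of all peaks. No further summit lay between these or past Hoxb2, so Hoxb3, Hoxb4 and Hoxb1 had their nearest summits 28.2, 23.2 and 14.3 kb away.

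In the Hoxa cluster (chromosome 6, 52112350 to 52210874, minus strand) both inside peaks were close to a gene start. The first, from 52153611 to 52153924, had its summit 791 bp downstream of the start of Hoxa5, which patterns the neck and upper thorax, within the coding part of exon 1 (52153788 to 52154586). Introns of Hoxa3 and of 2700086A05Rik span the same bases. With a fold enrichment of 4.66 and a −log10 q of 9.88, it was above 35.5% of all peaks by fold enrichment. The second, from 52196375 to 52196560, was 238 bp upstream of Hoxa11, a gene of the forearm and lower leg segments, in an exon of the antisense transcript Hoxa11as. It had a fold enrichment of 4.48 and a −log10 q of 7.48, above 30.4% of all peaks. Both values at the 2 sites were below the median of all peaks, 5.22.

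In the Hoxd cluster (chromosome 2, 74506367 to 74603200) both inside peaks lay upstream of Hoxd3, which patterns the first neck vertebrae, in introns of 1700109F18Rik. One, from 74549779 to 74549971, was 153 bp upstream of the Hoxd3 start and had a fold enrichment of 4.19 and a −log10 q of 6.29. The other, from 74546775 to 74546988, was 3088 bp upstream of the same start and 4.23 kb downstream of the start of Hoxd8, with a fold enrichment of 4.01 and a −log10 q of 5.83. They were above 21.5% and 18.0% of all peaks. No summit lay between Hoxd13 and Hoxd8, or between the Hoxd3 start and Hoxd1.

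The flanks held 6 peaks on 3 of their 8 sides. Beyond Hoxa2 there were 3, all intergenic. The strongest of the 16, from 52037776 to 52038222, had its summit 77.4 kb past the Hoxa2 start, with a fold enrichment of 12.2 and a −log10 q of 51.1, above 96.8% of all peaks (rank 652). Its neighbours were a peak from 52029591 to 52029867, 85.7 kb past Hoxa2 with a fold enrichment of 5.21, and a peak from 52069227 to 52069518, 46.0 kb past Hoxa2 with a fold enrichment of 7.68, whose summit was 1131 bp from the pseudogene Gm8078. All 3 had a higher fold enrichment than either peak inside Hoxa.

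Beyond Hoxd13 there were 2 flanking peaks, next to Evx2, a homeobox gene that neighbours the cluster. They ran from 74487118 to 74487369 and from 74489148 to 74489422, with summits 19.1 and 17.1 kb upstream of Hoxd13 and fold enrichments of 5.21 and 6.45. The second was 8.63 kb downstream of the Evx2 start. Beyond Hoxb13 there was 1 peak, from 96006967 to 96007190, in an intron of Ttll6 and 48.5 kb upstream of Hoxb13, with a fold enrichment of 4.91. The flanks beyond Hoxa13, Hoxb1 and Hoxd1, and both flanks of Hoxc, held 0 peaks each, which at 100 kb allows up to 36.9 peaks per Mb (exact 95% Poisson interval). An empty stretch of this length is common, since 57.7% of all 100 kb windows of the genome held 0 summits.

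Hoxc (chromosome 15, 102751534 to 102867274) stood apart in having neither an inside nor a flanking peak. Its 9 genes were between 121 kb (Hoxc13) and 208 kb (Hoxc5) from the nearest summit, and the stretch free of summits around them ran for 421 kb, from 102630541 to 103051752. Such a stretch is common in this list, since 43.2% of the genome lay in stretches at least as long. A count of 0 over the 116 kb of the cluster allows a density of up to 31.9 peaks per Mb, a limit above the densities measured in Hoxa (20.3) and Hoxd (20.7) and below that in Hoxb (34.5, with an interval from 12.7 to 75.1). Just past the flank on the Hoxc13 side, from 100 to 200 kb beyond the cluster, there were 8 peaks with fold enrichments from 4.36 to 16.0 and a median of 7.29. The strongest, from 102560690 to 102561098, was 191 kb beyond Hoxc13 and 8.28 kb from the start of Calcoco1. On the other side the same distance held 1 peak, in an intron of Cbx5.

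Inside the 4 clusters the density was 20.6 peaks per Mb, with an exact 95% Poisson interval from 9.89 to 37.9, and in the flanks it was 7.5 (2.75 to 16.3). The sequenced genome held 8.05 peaks per Mb. With flanks of 50 kb the flanking density was 10 per Mb and with flanks of 200 kb it was 13.8, both above the genome's instead of below it. These intervals cover counting error only, and they treat peaks as independent. Hoxb alone had 34.5 peaks per Mb (12.7 to 75.1), and its stretch from Hoxb13 to Hoxb9, singled out after its values were seen, had 54.0 (14.7 to 138). Hoxa had 20.3 (2.46 to 73.3) and Hoxd had 20.7 (2.50 to 74.6), intervals that contain the genome's density. Without Hoxb the inside density of the other 3 clusters was 12.9 per Mb. The lower bound over all 4 clusters was above the genome's density, but gene-dense sequence in general held more peaks. In windows of 100 kb, the mean was 0.803 summits over the genome and 1.32 in the 771 windows with at least 5 protein-coding gene starts. Put per Mb, this gene-dense mean falls within the intervals of all 4 clusters and of Hoxb. No summit was present in 57.7% of all windows and in 36.8% of the gene-dense ones, and 20.6% of all windows had at least 2.

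**Figure D2:**
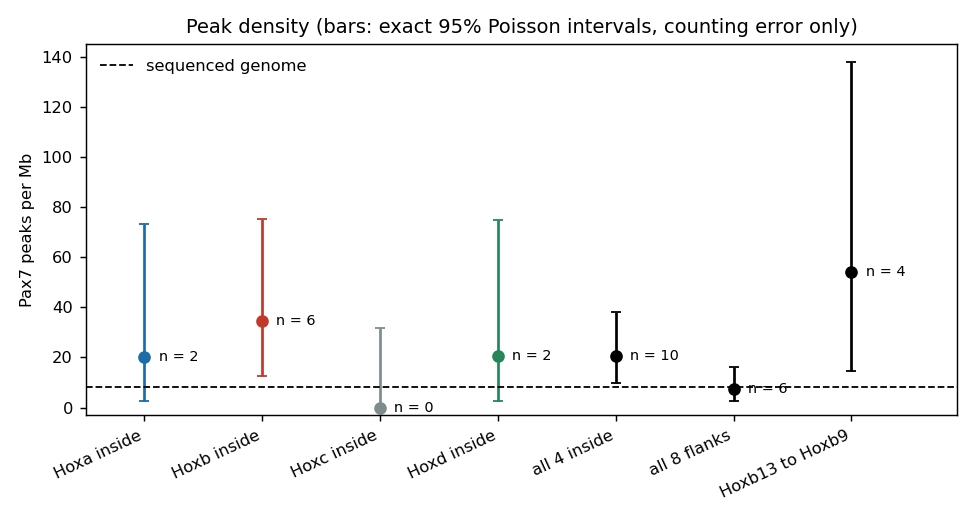
Points are Pax7 peaks per Mb (vertical axis) in each cluster, in all 4 clusters, in all 8 flanks and in the stretch from Hoxb13 to Hoxb9, with exact 95% Poisson intervals that cover counting error only, and n is the number of peaks. The dashed line is the sequenced genome at 8.05 per Mb. It lies below the intervals of Hoxb (12.7 to 75.1) and of all 4 clusters (9.89 to 37.9). It is also below that of the stretch from Hoxb13 to Hoxb9, which was singled out after its values were seen. The mean of gene-dense windows is not drawn, and it falls within the intervals of Hoxb and of all 4 clusters.

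The fold enrichment of the 16 peaks ran from 3.84 to 12.2 with a median of 5.21, next to a median of 5.22 over all peaks. Of the 16, 10 had a value of 5 or more, as did 54.9% of all peaks. By cluster, 5 of 6 inside peaks were at or above 5 in Hoxb (median 7.15), and 0 of 2 in each of Hoxa (median 4.57) and Hoxd (median 4.1). The peaks per cluster are few, and a difference between clusters was not tested. The 6 flanking peaks had a median of 5.83, and 5 of them reached 5. Inside the clusters, the 5 peaks within 1 kb of a transcript start had a median of 4.48, and the 5 farther away had a median of 7.15. Of those farther away, 4 were the peaks between Hoxb13 and Hoxb9, and the other, in Hoxd, had 4.01. The peaks near a start in Hoxb had 7.15 (Hoxb6) and 3.84 (Hoxb2), and that in Hoxd had 4.19. Distance and cluster are therefore only partly separate here, and neither was tested. Over all peaks the split by distance gave 4.96 and 5.23. The peaks were 186 to 468 bp wide (median 264 bp, against 252 bp over all peaks).

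**Figure D3:**
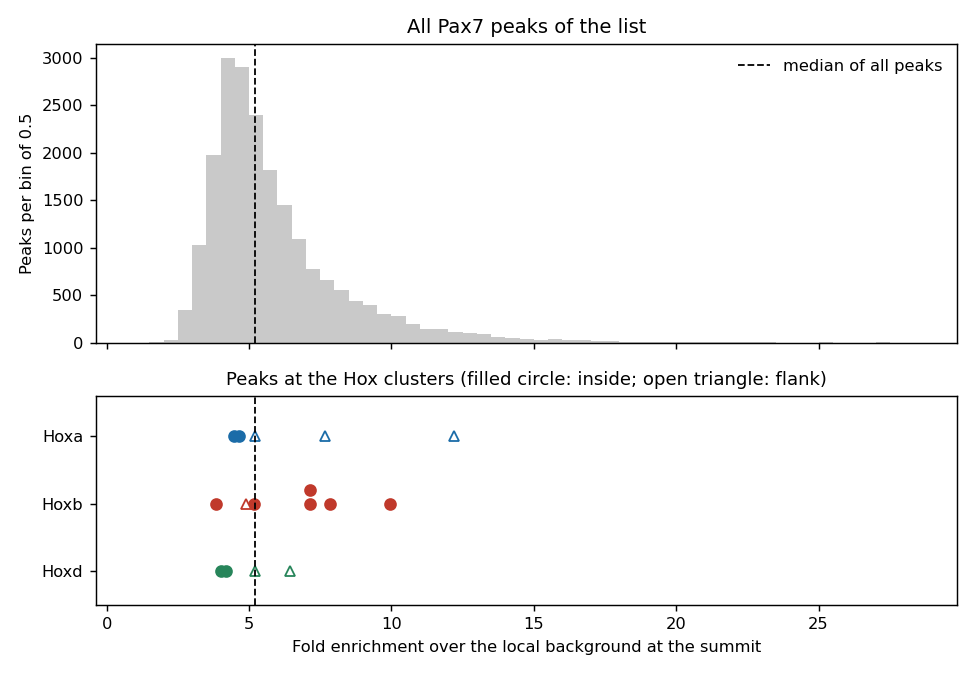
The upper panel is a histogram of the fold enrichment of all 20579 Pax7 peaks in bins of 0.5, and the lower panel shows each Hox peak on the same horizontal axis, with filled circles inside a cluster and open triangles in a flank. The dashed line marks the median of all peaks, 5.22. Both inside peaks of Hoxa and of Hoxd lie to its left, and 4 of the 6 of Hoxb lie to its right.

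The starts of 12 of the 38 Hox genes (Hoxa3, Hoxa5, Hoxa6, Hoxa10, Hoxa11, Hoxb2, Hoxb5, Hoxb6, Hoxb7, Hoxb9, Hoxd3 and Hoxd8) had a Pax7 summit within 10 kb, compared with 24.2% of the 22350 protein-coding genes. The Hox share, 31.6%, was above this background, but with peaks at a fold enrichment of at least 5 it was below it, at 4 of 38 (10.5%) against 13.7%. Within 5 kb it was 7 of 38 (18.4%), next to 18.0%, and within 25 kb it was 24 of 38 (63.2%), next to 38.7%. Counted from any annotated transcript start, it was 13 of 38 (34.2%) within 10 kb, next to 28.6%. The 12 genes named above shared 8 peaks, because neighbouring starts lie close together, so they are not independent. A single peak in Hoxa5 served Hoxa3, Hoxa5 and Hoxa6, and the one in Hoxb6 served Hoxb5, Hoxb6 and Hoxb7. Within 1 kb there were 5 of 38, compared with 11.8% of protein-coding genes. Within 100 kb there were 29, compared with 71.8%, and the 9 without were those of Hoxc. The median distance from a Hox gene start to the nearest summit was 16.2 kb, next to 41.0 kb over all protein-coding genes. It was 10.8 kb in Hoxa, 10.4 kb in Hoxb, 17.1 kb in Hoxd and 176 kb in Hoxc. Neighbouring starts share summits here as well, and no background of equally packed genes was made for these distances.

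By position along the axis, a gene with a summit within 10 kb was found in paralog groups 2, 3 and 5 to 11. In groups 3 (Hoxa3 and Hoxd3), 5 (Hoxa5 and Hoxb5) and 6 (Hoxa6 and Hoxb6) this held for 2 genes each. Both starts in group 3 were the outermost annotated ones and lay out of paralog order. That of Hoxa3 (52163338) was upstream of the Hoxa6 start (52161355), and that of Hoxd3 (74549986) was upstream of the Hoxd4 start (74560035). Their summits therefore do not mark the place of group 3 in the cluster. No gene of groups 1, 4, 12 or 13 had one, and the nearest in these were Hoxd4 at 10.2 kb, Hoxb1 at 14.3 kb, Hoxa13 at 14.4 kb and Hoxd12 at 23.7 kb. Among the genes nearest a summit, Hoxb2 (0.148 kb), Hoxd3 (0.153 kb) and Hoxa11 (0.238 kb) had theirs directly upstream of the start, and Hoxa5 and Hoxb6 had theirs within the gene. The peaks at Hoxb2, Hoxd3 and Hoxa11 were among the 5 weakest inside the clusters.

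**Figure D4:**
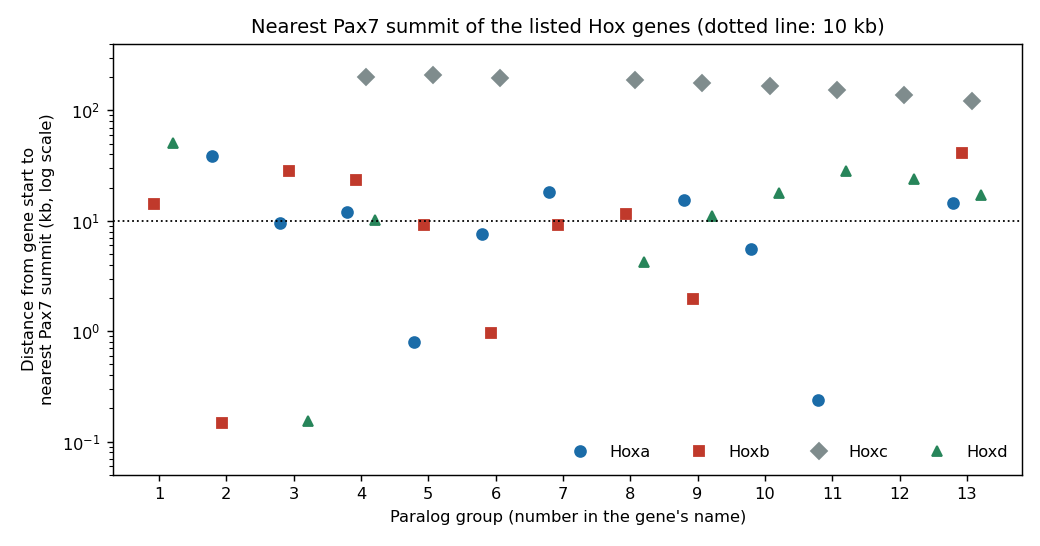
Each point is 1 of the 38 Hox genes, with its paralog group on the horizontal axis and the distance from its start to the nearest Pax7 summit in kb on a logarithmic vertical axis, coloured by cluster. The dotted line is 10 kb, and 12 points lie below it. The 9 Hoxc genes lie between 121 and 208 kb.

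The share of inside peaks at promoters was 5 of 10 within 1 kb of an annotated transcript start, against 16.3% of all peaks. Transcript starts are dense in these clusters, however, where 35.7% of the bases lie within 1 kb of one (51.5% in Hoxa, 29% in Hoxb, 25.4% in Hoxc and 44.1% in Hoxd), compared with 4.15% of the genome. In the window from 50 bases before to 50 bases after the summit, the 10 inside peaks had a median GC content of 52.0% and a median of 4.5 CpG per window, next to 45.5% and 2 per window over all peaks. The clusters as a whole had 48.9% to 50.0% GC and 20.9 to 29.9 CpG per kb, against 41.8% and 8.34 per kb for the genome. The peak in Hoxa5 was at the upper end, with 65.3% GC and 11 CpG, whereas the strongest inside peak, upstream of Hoxb9, had 45.5% and 4. Of the 6 flanking windows the GC content ran from 35.6% to 56.4%.

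Short motifs were looked for on either strand, up to 50 bp from a summit. They were the paired box core GTCACG, the joined paired and homeodomain site ATTAGTCA, a homeodomain dimer (TAAT and ATTA with 2 bases between), TGATNNAT for Hox with Pbx, TGACAG for Meis, and GCACTG as a control. The letters GTCA are common to the first pair, so that a core and a joined site can overlap. The core was present in 3 of the 16 windows (18.8%, 95% Wilson interval 6.59 to 43.0), next to 11.1% of all peaks. ATTAGTCA was present in 1 window, next to 2.94%, and the homeodomain dimer in 0, next to 0.831%. The Hox with Pbx motif was in 0 windows, next to 4.82%, Meis in 1, next to 10.2%, and the control in 1, next to 6.86%. With 16 windows the 95% Wilson interval of each share contained the share over all peaks.

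The 3 windows with the core differed in their letters. In the coding exon of Hoxa5 the core and the homeodomain part overlapped on the minus strand to one composite, with the core centred 4.5 bp and the joined site 1.5 bp from the summit, as the capitals in the printed sequence show. This overlapping composite was held by 48 of the 20579 peaks. It was not among the motifs fixed beforehand, so the count only describes how common these letters are in the list. The Hoxa5 peak itself was below the median of all peaks in fold enrichment. In the Ttll6 intron beyond Hoxb13 the core stood alone on the plus strand, centred 4.5 bp from the summit. In the peak between Hoxb13 and Hoxb9 it was on the minus strand and 37.5 bp away. Neither the strongest inside peak, at Hoxb9, nor the strongest flanking peak, beyond Hoxa2, held any of the motifs in its window. The Meis letters were 40.5 bp from the summit of the peak nearest Evx2.

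Pax7 peaks were also present near the genes of the Meis and Pknox cofactors of Hox proteins. All 5 (Meis1 to Meis3, Pknox1 and Pknox2) had a summit within 100 kb of the start and 2 (Meis1 and Pknox1) had one within 10 kb. Meis1 and Pknox2 had the most peaks, 7 each. The nearest summits were 0.572 kb upstream of Pknox1 and 1.58 kb upstream of Meis1, and the strongest of these peaks, near Meis3, had a fold enrichment of 8.37. Of the Cdx and Evx genes, which act upstream of or beside the clusters, Evx2 and Cdx1 had a summit within 10 kb and Evx1 had its nearest at 55.8 kb, whereas Cdx2 and Cdx4 had none within 100 kb. The 4 peaks within 100 kb of Evx2 are the Hoxd peaks described above, counted again. The 2 within 100 kb of Evx1 include the peak at Hoxa11. No test of a difference between these lists was made, and the backgrounds of 24.2% and 71.8% apply to them as well.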

How the data were processed

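Reads were aligned by the authors to mm9 (bowtie2), those mapped uniquely were kept and duplicates were taken out (Picard). The authors then pooled the 2 Pax7 ChIP and the 2 input libraries and ran MACS2. The deposited list gives, for each peak, a score, the fold enrichment (a ratio that the authors' caller computed at the summit), the −log10 p-value, the −log10 q-value, and the summit. The score is the whole part of 10 times the deposited −log10 q. These values describe the pooled libraries and carry no replicate error. Per-sample columns with no sample numbered 0.

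Summits were placed on NCBIM37 with GENCODE vM1 annotation, and coordinates are 1-based. The members and gene lists were chosen with earlier results of these data known. Every inside peak, every peak in a flank with 3 or fewer, and for other gene lists the gene with most peaks and those with none were named, and some genes of these lists are not reported here. Intervals are exact Poisson for densities and Wilson for shares, at 95%. Placement, distances and motif search were tested on simulated data. Alternatives were a −log10 q or fold enrichment of at least 5, any overlap of 1 bp, merging within 500 bp, other edges, flanks and gene distances, and motif windows of 25 and 100 bp. The tools were samtools 1.23.1 and pysam 0.24.0 for sequence, and pandas 2.3.3 with scipy 1.17.1 under Python 3.11.15 for counts and intervals.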

Additional observations from a re-analysis of the deposited data

How the results depend on the processing

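No paired analysis was possible because the peaks were called on merged replicates and no result comes from a test. For the same reason leaving out a replicate could not be run. Of 19 other settings, 14 changed the value by less than its counting error or by less than 1.5 times. A fold enrichment of at least 5 left 5 of the 10 inside peaks, and it left 4 of the 12 Hox genes with a summit within 10 kb (10.5% of the 38, below the 13.7% of protein-coding genes). Within 5 kb there were 7 Hox genes (18.4%, against 18.0% of protein-coding genes). Within 25 kb there were 24 (63.2%, against 38.7%). Flanks of 200 kb raised the flanking density from 7.5 to 13.8 peaks per Mb, or to 10.8 with Hoxc left out. Flanks of 50 kb gave 10 peaks per Mb. Leaving out a cluster was chosen after seeing the data. Without Hoxb the inside density was 12.9 per Mb, and without each of the other clusters it was 20.6 to 27.1. Without replicates, 1 list limits every count to counting error, and a place without a peak is not shown to be unbound.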
